A study of Homo sapiens with 2 samples.

Results

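The replication-dependent histone genes were described in 2 human lung cancer cell lines. They were the 70 genes, of 27685 in the deposited gene table, whose symbols begin with HIST1H, HIST2H, HIST3H or HIST4H, without 3 pseudogenes. The members were chosen by symbol, but with the higher FPKM of the chromosome 6 histone genes in H596 already known from an earlier analysis of the same tables. The differences between the cell lines are therefore descriptions and carry no test.

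The study sequenced mRNA of H2087 and H596, both labelled as lung adenocarcinoma, with 1 library each. Both are established human cell lines and both were grown without treatment in RPMI medium with fetal bovine serum. No gene was altered and no agent was given in either line, so the comparison is between the lines as such. With 1 library per line there is no replicate error, and the intervals given here cover counting error only. The estimated counts summed to 46961500 in H2087 and 55387847 in H596.

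The label was set against marker genes. In H2087, NKX2-1 (the lung lineage transcription factor) had an FPKM of 110.0 and NAPSA, a lung aspartic protease, 21.9, while TP63 stood at 0.183 and KRT5 at 0. In H596, NKX2-1 stood at 0.508 and NAPSA at 0.0645, while TP63 and KRT5, which mark squamous and basal epithelium, reached 55.2 and 106.0. The adenocarcinoma markers were therefore nearly absent from H596, except for KRT7 at 608. SFTPA1, SFTPA2 and SFTA3, also on that list, stood at 82.9, 47.6 and 100.6 in H2087. SFTPB (0.123 in H2087 and 0 in H596) and SFTPC (0 and 0.0301) were near 0 in both lines. Of the other squamous markers, KRT6A (1.48 and 53.7) and DSG3 (0 and 33.9) were higher in H596. SOX2 was present in both lines (39.1 and 56.4) and KRT14 reached 1.33 in H596. CD3E, PTPRC and COL1A2, which mark blood and stromal cells, were at 0 in both libraries. CD68, a macrophage gene also found in other cells, stood at 128 and 25.6, and the stromal genes DCN at 0 and 9.77 and COL1A1 at 3.89 and 0.916.

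Core histones H2A, H2B, H3 and H4 form the protein spool on which DNA is wound, and the linker histone H1 binds where DNA enters and leaves it. Cells make most of these proteins in S phase, when new DNA has to be packed, from clustered genes of which many encode the same or nearly the same protein. The transcription co-activator NPAT switches these genes on, and their mRNAs usually have no introns and no poly(A) tail. They end instead just after a short stem-loop, which the stem-loop binding protein SLBP holds for processing, export and translation. Some of these genes can also give longer or spliced transcripts with a poly(A) tail, for example in cells that have left the cell cycle.

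The libraries were made with a kit that captures RNA by its poly(A) tail. The values are therefore levels of the captured histone RNA. More histone RNA, a larger tailed share of it and a larger share of cells in S phase cannot be told apart in these bulk libraries.

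The stem-loop was searched for in the hg19 sequence because it is the end that sets these mRNAs apart. It was taken as a 6-base stem that starts with GG, a 4-base loop that starts with TT and the paired arm. The window ran from the stop codon to 150 bases past the end of the listed transcript. A stem-loop was found in 65 of the 70 genes, from 22 to 67 bases after the stop codon (median 35), and in 5 different sequences. These were held by 40, 10, 10, 4 and 1 genes, and 1 gene of each is shown in that order, with the stem-loop in capitals and 5 bases on either side in lower case.
HIST1H1C (chr6:26055967.0-26055992.0, minus strand): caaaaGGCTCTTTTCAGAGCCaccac
HIST1H2BK (chr6:27114140.0-27114165.0, minus strand): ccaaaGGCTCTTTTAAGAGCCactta
HIST1H4H (chr6:26285354.0-26285379.0, minus strand): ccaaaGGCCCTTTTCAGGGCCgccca
HIST2H4A (chr1:149804591.0-149804616.0, plus strand): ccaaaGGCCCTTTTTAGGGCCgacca
HIST2H2AC (chr1:149858936.0-149858961.0, plus strand): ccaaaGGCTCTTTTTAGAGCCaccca

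HIST1H3E, HIST1H2BI, HIST1H2AG, HIST1H2AK and HIST1H4L had no such match in the window. Listed transcripts, the intronless one where a gene has both forms, ended a median of 5 bases after the stem-loop. For HIST2H2BE the transcript, of 2223 bases, went on for 1728 bases after it, and HIST1H2BK, HIST1H2BD and HIST2H2BF also have longer spliced transcripts in the list.

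The promoters were compared because genes of a histone type share elements there. RefSeq promoter sequences (GRCh38.p14, 250 bases before to 50 after the start) were matched by symbol to 65 of the 70 genes. For this, 3 short elements were searched on both strands, namely CCAAT (the CCAAT box), TATAA (a core of the TATA box) and ATTTGCAT, the octamer element of H2B promoters. The 150 bases before the start are shown for the gene with the highest mean FPKM of each type and for HIST3H2A, which differed in the other direction, with matches in capitals.
HIST1H1C (chr6:26056471-26056620, minus strand): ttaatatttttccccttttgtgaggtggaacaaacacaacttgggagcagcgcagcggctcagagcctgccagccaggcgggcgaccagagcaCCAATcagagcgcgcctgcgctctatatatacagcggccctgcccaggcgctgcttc
HIST1H2AC (chr6:26124022-26124171, plus strand): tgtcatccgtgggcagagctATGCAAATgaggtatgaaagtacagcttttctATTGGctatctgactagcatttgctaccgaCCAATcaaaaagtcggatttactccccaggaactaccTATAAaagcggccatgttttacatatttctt
HIST1H2BK (chr6:27146859-27147008, minus strand): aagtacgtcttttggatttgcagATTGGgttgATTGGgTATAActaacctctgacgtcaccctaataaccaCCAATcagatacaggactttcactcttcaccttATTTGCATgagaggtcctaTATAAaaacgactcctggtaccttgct
HIST1H3H (chr6:27809901-27810050, plus strand): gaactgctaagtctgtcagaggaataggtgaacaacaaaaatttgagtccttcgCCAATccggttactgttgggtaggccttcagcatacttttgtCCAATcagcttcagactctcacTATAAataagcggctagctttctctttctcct
HIST2H4A (chr1:149832507-149832656, plus strand): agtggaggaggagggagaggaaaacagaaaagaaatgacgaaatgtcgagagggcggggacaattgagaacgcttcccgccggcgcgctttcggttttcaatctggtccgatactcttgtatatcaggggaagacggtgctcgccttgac
HIST3H2A (chr1:228457874-228458023, minus strand): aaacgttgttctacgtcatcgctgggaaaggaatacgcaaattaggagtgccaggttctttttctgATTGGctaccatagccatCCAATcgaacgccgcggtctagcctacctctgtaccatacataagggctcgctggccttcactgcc

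CCAAT was present in 55 of the 65 promoters (84.6%), against 35.7% of 27305 promoters of the same length. TATAA was present in 60 (92.3%), against 21.1% of all promoters, and ATTTGCAT in 26 (40.0%), against 1.80%. By type, CCAAT was found in all 6 H1, 16 H2A, 18 H2B and 12 H3 promoters matched, but in 3 of 13 H4 promoters. ATTTGCAT was found in 14 of 18 H2B and 11 of 16 H2A promoters, in 1 of 12 H3 promoters, and in 0 of the H1 and H4 promoters. The H3 promoter with it, of HIST1H3D, is the same stretch as the HIST1H2AD promoter. Windows of neighbouring H2A and H2B genes read in opposite directions also overlap. The same element can therefore be counted for more than 1 gene and type. The HIST2H4A and HIST2H4B promoters held no match to the 3 elements in the window. A match describes these letters and is not evidence of binding.

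Captured histone RNA was scarce in H2087 and more plentiful in H596. The 70 genes held 2778 estimated counts in H2087, 0.00592% of its total, and 41747 in H596, 0.0754% of its total. The rate of counts was 12.7 times higher in H596 (95% Clopper-Pearson interval 12.3 to 13.2), and the summed FPKM went from 82.0 to 1101, a ratio of 13.4. FPKM, which scales fragments by library size and by the length of the transcript, allows levels to be set side by side between genes.

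Of the 70 genes, 52 had a higher FPKM in H596, 7 a higher FPKM in H2087, and 11 were at 0 in both libraries. This split was not counted over all genes. More than 3 counts were present for 24 members (34.3%) in H2087, against 59.7% of all listed genes, and for 45 members (64.3%) in H596, against 60.0%. In H2087 no member reached an FPKM of 100, 2 reached 10 and 11 reached 1. In H596 those numbers were 3, 17 and 37.

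Counting error was small against these differences. Of 29 members counted in both libraries, 27 had a ratio of count rates, H596 to H2087, whose whole interval lay above 2. The other two, HIST1H4B and HIST1H1D, had at most 2 counts in a library and an interval that included 1. A further 18 members were at 0 in H2087 with more than 3 counts in H596, and against a limit of 3 counts in H2087, 15 of these were more than 2-fold higher. HIST3H2A and HIST3H2BB were at 0 in H596 with more than 3 counts in H2087. The remaining 21 members had at most 3 counts in 1 library and 0 in the other, or 0 in both. How many of all genes meet these criteria was not counted, so the numbers describe the members only.

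On the scale of log2(FPKM + 1), with an average FPKM over both libraries of 1 or more required, 31 members passed. Members low in both libraries could not pass, and a member at 0 in H2087 passed only through a high value in H596, so the counts over passing members describe and support nothing. HIST2H3C, with a mean of 1.12, was just inside the threshold, and HIST1H1E, with 0.951, was just outside. Of the 31, 30 were higher in H596 by at least 2-fold, where 18.2% of 13048 genes were. The exception, HIST3H2A, was lower by at least 2-fold, where 14.2% of all genes were. A difference of at least 8-fold was reached by 14 members and by 2.13% of all genes. The median difference was 2.71 over the 31 members and 0.12 over all genes on this scale.

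**Figure D1:**
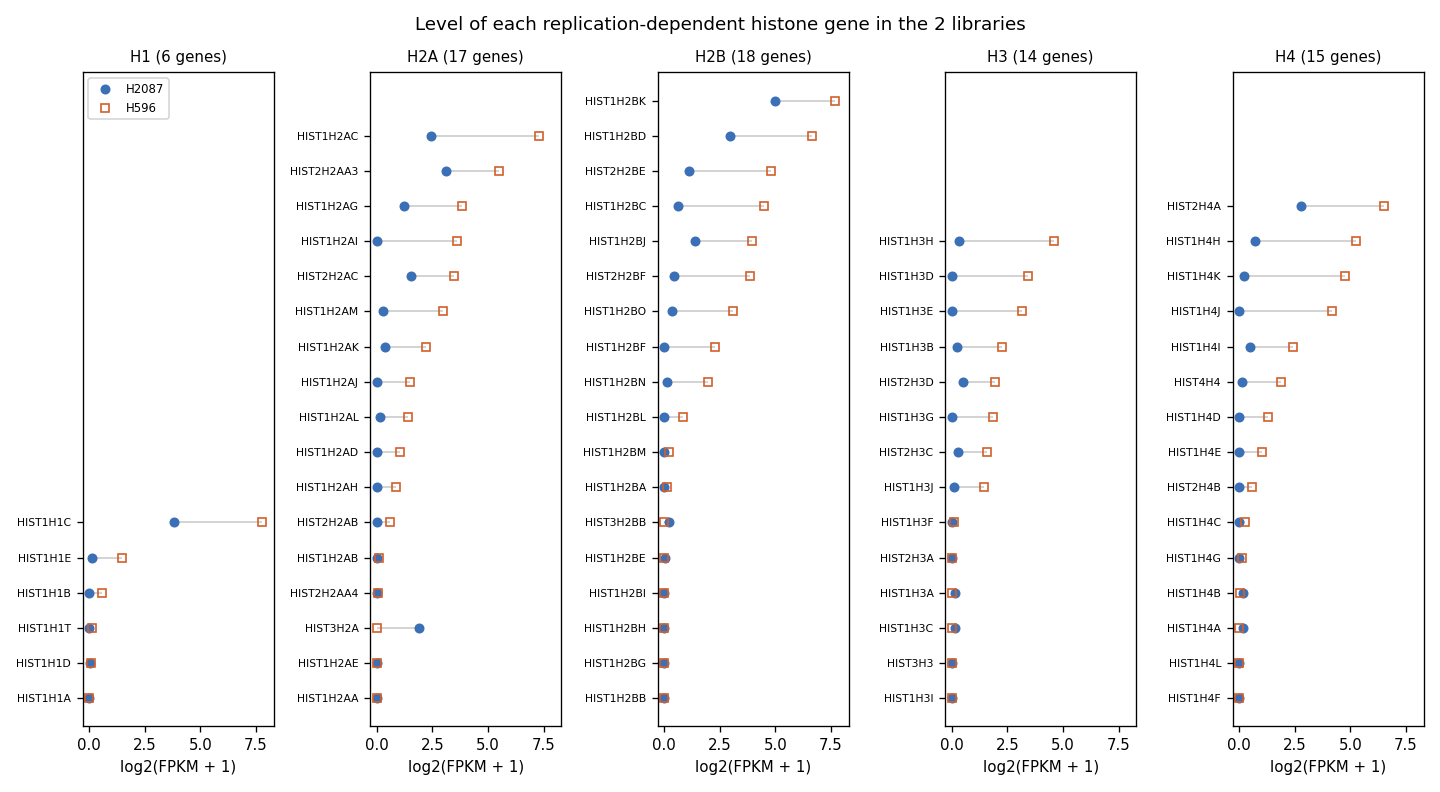
Level of each of the 70 histone genes as log2(FPKM + 1), in 5 panels by histone type, with H2087 as filled circles and H596 as open squares, joined by a line for each gene. The squares lie to the right of the circles for 52 genes. HIST3H2A is the widest gap the other way, and a block of genes at the bottom of each panel is at or near 0 in both.

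By histone type, summed FPKM was higher in H596 for all 5 types. H2B genes gave 41.2 in H2087 and 393 in H596, a ratio of 9.55. H2A genes went from 18.8 to 253 and the linker H1 genes from 13.2 to 219, ratios of 13.5 and 16.6. H4 genes gave 7.46 and 181, a ratio of 24.3, and H3 genes 1.37 and 54.2, a ratio of 39.7. The order of the types was H2B, H2A, H1, H4 and H3 in both libraries in the gene table, which takes 1 of the places of a gene with identical copies. Summed over all places, H4 (12.8 and 262) lay below H1 (13.2 and 219) in H2087 and above it in H596. H2B made up 50.2% of histone FPKM in H2087 and 35.7% in H596, while H4 held 9.10% and 16.5%, and H3 1.67% and 4.93%. With 1 library per line, the spread that would separate neighbours in this order is unknown.

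**Figure D2:**
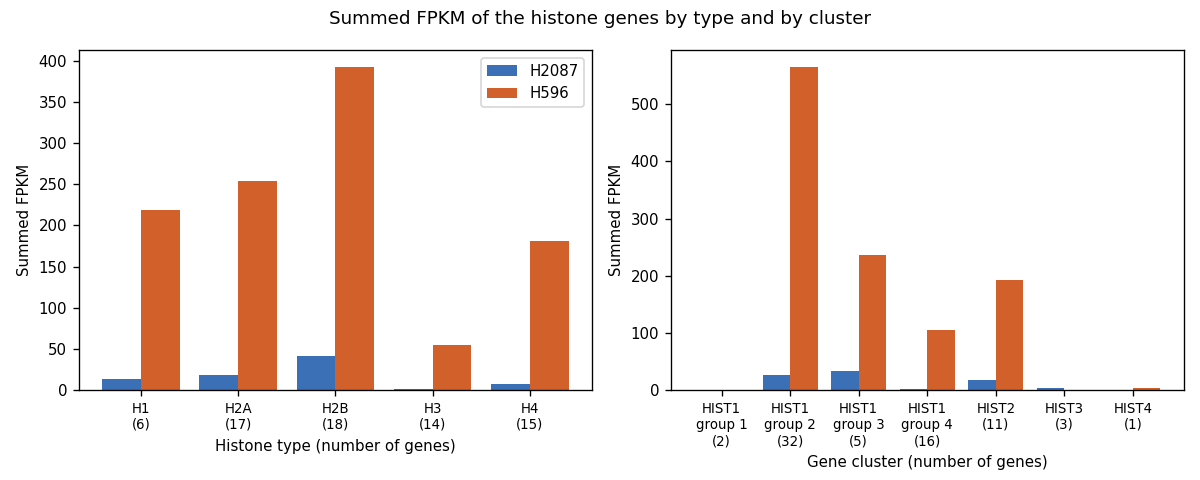
Summed FPKM of the histone genes in H2087 (blue) and H596 (orange), on the left by histone type and on the right by gene cluster, with the number of genes in brackets and linear axes from 0. H596 is higher for each type and for each cluster except HIST3, where H596 is at 0.

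Among the linker genes, nearly all captured RNA came from HIST1H1C, which encodes H1.2. It had 459 counts and an FPKM of 13.1 (95% Wilson interval 11.9 to 14.3) in H2087, and 8994 counts and 217 (212 to 221) in H596. It ranked 241st of 27685 genes in H596 and 5262nd in H2087. HIST1H1E, encoding H1.4, had 4 counts and 0.105 (0.0408 to 0.270) in H2087, and 81 counts and 1.80 (1.45 to 2.23) in H596. HIST1H1B, encoding H1.5, was at 0 in H2087 and had 23 counts and 0.494 (0.329 to 0.741) in H596. HIST1H1A and HIST1H1D had at most 2 counts in a library, and the testis gene HIST1H1T had 0 and 4.

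Among the H2A genes, HIST1H2AC was the highest in H596 and had the largest difference of any passing member, 4.86 on the log2(FPKM + 1) scale. It had 118 counts and an FPKM of 4.50 (3.76 to 5.39) in H2087, and 4913 counts and 159 (154 to 163) in H596. HIST2H2AA3 was the highest H2A gene in H2087, with 198 counts and 7.70 (6.70 to 8.85), against 1335 counts and 44.05 (41.7 to 46.5) in H596. HIST1H2AG had 33 counts and 1.36 (0.967 to 1.91), against 376 counts and 13.3 (12.01 to 14.7). HIST1H2AI, at 0 in H2087 with 296 counts in H596, was at least 83.7-fold higher in H596 by count rate. HIST1H2AI and HIST1H2AJ share most of their 75-base windows, so reads could be split between them.

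Among the H2B genes, HIST1H2BK led both libraries. It had 1211 counts and an FPKM of 30.2 (28.5 to 31.9) in H2087, where it alone held 36.8% of the summed histone FPKM. In H596 it had 9632 counts and 203 (199 to 207). HIST1H2BD had 265 counts and 6.82 (6.05 to 7.69) in H2087, and 4526 counts and 98.7 (95.9 to 102) in H596. HIST2H2BE, with the long listed transcript, had 123 counts and 1.15 (0.967 to 1.38), against 3442 counts and 27.3 (26.4 to 28.2). HIST1H2BC followed with 0.522 and 21.1.

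H3 genes had the least captured RNA. The highest was HIST1H3H, with 6 counts and an FPKM of 0.258 (0.118 to 0.562) in H2087, and 626 counts and 23.3 (21.5 to 25.2) in H596. Its ratio of count rates, 88.5, had an interval of 40.4 to 242. HIST1H3D and HIST1H3E were at 0 in H2087 and had 512 and 211 counts in H596, with FPKM of 9.79 (8.98 to 10.7) and 8.04 (7.02 to 9.20). HIST1H3D was at least 145-fold higher and HIST1H3E at least 59.6-fold higher in H596 by count rate. The first exon of HIST1H3D overlaps HIST1H2AD on the same strand, so the 512 counts of the one and the 32 counts of the other cannot be told apart with certainty.

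Among the H4 genes, which all encode a very similar protein, HIST2H4A was the highest. It had 114 counts and an FPKM of 5.96 (4.96 to 7.16) in H2087, and 2057 counts and 91.5 (87.7 to 95.6) in H596. HIST1H4H had 12 counts and 0.628 (0.359 to 1.10), against 786 counts and 37.0 (34.5 to 39.7). HIST1H4K had 3 counts and 0.157 (0.0534 to 0.462), against 516 counts and 25.6 (23.5 to 28.0), and its ratio of count rates of 146 had an interval of 49.6 to 710. HIST1H4J was at 0 in H2087 and had 344 counts and 17.0 (15.3 to 18.9) in H596, at least 97.2-fold higher by count rate. HIST1H4J and HIST1H4K share nearly all of their sequence, so the division of reads between them is uncertain. HIST1H4C, at 0 and 5 counts, was near the limit of detection in both libraries.

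A few genes held most of the captured histone RNA. Of all histone FPKM, the top 5 members took 77.7% in H2087 and 69.8% in H596. HIST1H2BK, HIST1H1C, HIST1H2BD and HIST2H4A were among the 5 highest in both libraries, joined by HIST2H2AA3 in H2087 and by HIST1H2AC in H596. Of the 10 highest genes, 6 were shared.

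The HIST1 cluster on chromosome 6 holds 55 of the genes, over 2.14 Mb (chr6:25726291-27861669, hg19). Its summed FPKM was 61.2 in H2087 and 906 in H596, a ratio of 14.8. Gaps of more than 200 kb divide it into 4 groups of 2, 32, 5 and 16 genes. The first, HIST1H2AA and HIST1H2BA, had 0 counts in H2087 and 3 in H596. The second, of 32 genes over 268 kb, went from 26.3 to 566 (ratio 21.5). The third, of 5 genes over 15.2 kb and with HIST1H2BK, went from 33.5 to 235 (ratio 7.03). The fourth, of 16 genes over 86.4 kb, was nearly empty in H2087 with 35 counts and an FPKM of 1.45, and reached 2525 counts and 105 in H596 (ratio of count rates 61.2, interval 43.9 to 88.0).

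Genes with high and with no captured RNA lay side by side in the second group. In the H596 library HIST1H1C, HIST1H2AC and HIST1H2BD had FPKM of 217, 159 and 98.7, while HIST1H2BB, HIST1H2AE, HIST1H2BG, HIST1H2BH and HIST1H2BI, in the same 268 kb, were at 0 in both libraries. A count of 0 allows an FPKM of up to 0.144 in H2087 and 0.122 in H596 for a gene of the length of HIST1H2BG.

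The span also holds non-histone genes. Of 32 such genes, 20 averaged an FPKM of 1 or more, and 8 of these were higher in H596 by at least 2-fold and 1, LOC100131289, was lower (6.26 and 0), where 18.2% and 14.2% of all genes were. The 8 became 4 after centring on the median of all genes and 10 under TPM. Their median difference was 0.74 on the log2(FPKM + 1) scale and their largest was 1.45, for BTN3A1, a butyrophilin gene (6.48 and 19.4). Of all 55 HIST1 members, with no filter on level, 23 exceeded 1.45 and 29 were higher in H596 by at least 2-fold. The share of all genes past 2-fold with no filter was not counted. The median over the 55 was 1.06, and over all 32 non-histone genes 0.41. The summed FPKM of the non-histone genes was 1.74 times higher in H596, against 14.8 times for the HIST1 members. The number of copies of the region in each line was not measured.

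**Figure D3:**
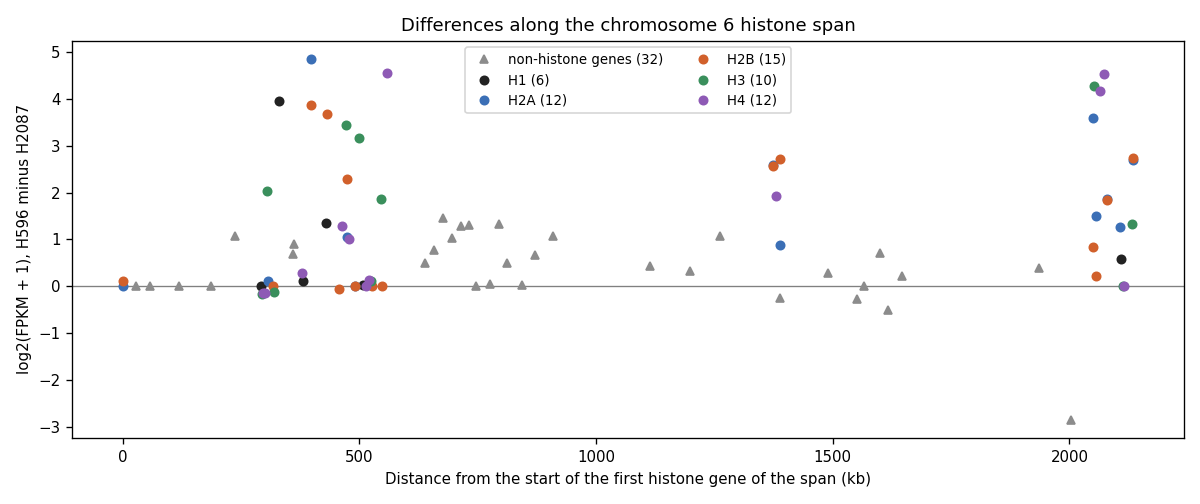
Difference of log2(FPKM + 1), H596 minus H2087, along the chromosome 6 span, against distance in kb from its first histone gene, with 55 histone genes as circles coloured by type and 32 non-histone genes as grey triangles. Some histone genes lie above 4 within the second group and the last group, amid others at 0. No triangle is above 1.45.

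The other clusters were small. HIST2 on chromosome 1 holds 11 members and went from a summed FPKM of 17.7 to 192, a ratio of 10.8. HIST2H2AA3 and HIST2H4A led it. HIST2H2BF had 9 counts and 0.363 (0.191 to 0.691) in H2087, and 480 counts and 13.4 (12.2 to 14.7) in H596. HIST2H2AC had 41 counts and 1.91 (1.41 to 2.60), against 249 counts and 10.0 (8.85 to 11.3). HIST2H3D had 10 counts and 0.425 (0.231 to 0.783), against 74 counts and 2.82 (2.25 to 3.54), and HIST2H2AB had 0 and 14 counts.

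Within HIST2, 3 pairs of genes have identical transcripts at the same 2 places: HIST2H2AA3 with HIST2H2AA4, HIST2H3C with HIST2H3A, and HIST2H4A with HIST2H4B. The deposited estimate gave almost all reads to 1 name of each pair, for example 2057 counts to HIST2H4A and 12 to HIST2H4B in H596, so a value belongs to the pair. The values listed for the 2 places of HIST2H4A were 5.39 and 5.96 in H2087, and 80.2 and 91.5 in H596. The 2 places share their whole transcript sequence, so reads cannot be assigned to 1 of them. The likeness of these values is therefore not a result about the places. Summed over both names and places, the H4 pair went from 11.4 to 173, the H2A pair from 14.7 to 84.5 and the H3 pair from 0.383 to 3.81. HIST2H3C itself had 5 and 59 counts, while HIST2H3A and HIST2H2AA4 each had 0 and 1.

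HIST3 was the cluster that ran the other way. HIST3H2A had 65 counts and an FPKM of 2.72 (2.14 to 3.47) in H2087 and 0 counts in H596, which allows up to 0.109. It was at least 25.6-fold lower in H596 by count rate. Its neighbour HIST3H2BB had 4 counts and 0.170 (0.0659 to 0.436) in H2087 and 0 in H596, and HIST3H3, a testis gene, was at 0 in both. HIST4H4 on chromosome 12, which lies alone, had 2 counts and 0.101 (0.0278 to 0.369) in H2087, and 63 counts and 2.69 (2.10 to 3.43) in H596.

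Many H2A and H2B genes lie head to head and share the stretch between their starts. There were 12 such pairs with 223 to 346 bases between the starts, among them the HIST1H2AC promoter shown here, which faces that of HIST1H2BC. In H596 the 2 genes of a pair were alike for HIST1H2AG and HIST1H2BJ (FPKM 13.3 and 14.3), for HIST1H2AM and HIST1H2BO (6.83 and 7.50) and for HIST1H2AK and HIST1H2BN (3.67 and 2.90). They were unlike for HIST1H2AC and HIST1H2BC (159 and 21.1), for HIST1H2AI and HIST1H2BL (11.1 and 0.798) and for HIST1H2AH and HIST1H2BK (0.837 and 203). Of the HIST1H2BK value in H596, the deposited estimate assigned 202 to a spliced transcript and 1.22 to the intronless one. This division was not checked against reads across the splice junction. The H2A gene was higher in 4 pairs, the H2B gene in 6, and both were at 0 in HIST1H2AE with HIST1H2BG and in HIST3H2A with HIST3H2BB. In H2087 HIST3H2A and HIST3H2BB stood at 2.72 and 0.170.

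**Figure D4:**
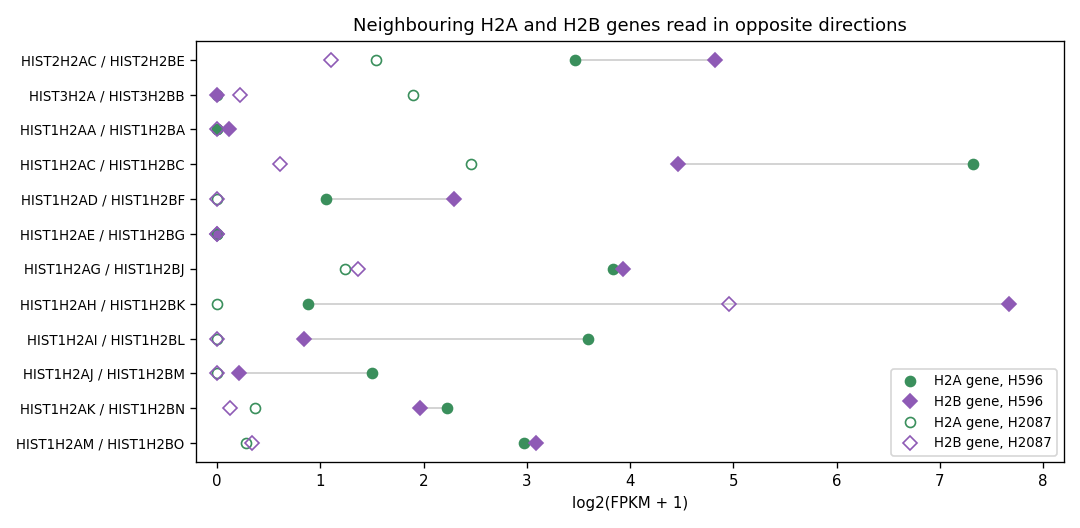
Levels of the 12 head-to-head pairs of H2A (circles) and H2B (diamonds) genes as log2(FPKM + 1), filled for H596 and open for H2087, with a grey line between the genes of a pair in H596. HIST1H2AG with HIST1H2BJ and HIST1H2AM with HIST1H2BO lie close together. The line is longest for HIST1H2AH with HIST1H2BK, whose value was assigned almost wholly to a spliced transcript.

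Some of the highest values were assigned to transcripts other than the short intronless form. The division between forms is that of the deposited estimate, and reads across splice junctions were not examined. For HIST1H2BK the table lists an intronless transcript of 498 bases and a spliced one that spans 8566 bases of the genome. The spliced one held 99.4% of the gene's FPKM in both libraries, with 29.98 in H2087 and 202 in H596, while the intronless one had 0.178 and 1.22. For HIST1H2BD the spliced form, spanning 13228 bases, held 97.8% in H2087 and 98.5% in H596, with FPKM of 6.67 and 97.2. For HIST2H2BF the spliced form held 0% in H2087 and 26.8% in H596, with 0 and 204 counts.

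Of 3 spliced forms checked against GENCODE exons, 2 lacked the stem-loop. In HIST1H2BD the first exon ended 28 bases before the stem-loop and in HIST2H2BF 47 bases before it, and no other exon held it. In HIST1H3D, listed as a spliced transcript alone, the stem-loop lay within an exon. The spliced HIST1H2BK form had no counterpart in GENCODE release 44 as mapped to hg19 and was not checked. Over all members, intron-containing transcripts went from a summed FPKM of 36.6 to 312, a ratio of 8.52, and intronless ones from 57.9 to 912, a ratio of 15.8, both summed over all listed places.

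Annotated transcripts of 17 of the 65 members with a stem-loop reach at least 200 bases beyond it, in the deposited list for 4 and otherwise in GENCODE. The annotation shows that a longer form is known, not that it was made in these cells. The 17 genes had median levels of 0.522 (H2087) and 14.3 (H596) FPKM, and the other 48 of 0 and 0.661. Of all histone FPKM, the 17 genes had 69.3% in H2087 and 58.7% in H596. They went from 56.8 to 646, a ratio of 11.4, and the other 48 from 23.5 to 430, a ratio of 18.3. HIST1H1C, high in H596, was among the 48. HIST2H4A, HIST2H4B, HIST1H2BF, HIST1H2BG and HIST1H4F were matched to no GENCODE gene. They stand among the 48 by the deposited list alone, and whether GENCODE holds longer forms of them was not checked. HIST2H4A alone gave 91.5 of the 430 in H596. Which ends the captured RNA had was not measured.

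Replacement histones are made throughout the cell cycle, from polyadenylated mRNA. Of 20 listed genes 19 were in the table and 10 averaged an FPKM of 1 or more. Of these, 2 were higher in H596 by at least 2-fold and 0 were lower, where 18.2% and 14.2% of all genes were. Their median difference was 0.34 on the log2(FPKM + 1) scale. H2AFZ was lower by at least 2-fold under TMM scaling and after centring. The 2 higher genes were H2AFV, an H2A.Z gene (49.6 and 176), and H2AFY2, encoding macroH2A2 (3.34 and 15.6). H1F0, the linker histone of resting cells, was at 388 and 233, H2AFZ, the other H2A.Z gene, at 361 and 181, and H3F3B, encoding H3.3, at 89.5 and 116. H3F3A had 5 and 22 counts (FPKM 0.0812 and 0.349), too few to describe. Whether its reads were lost or assigned elsewhere was not checked. The summed FPKM of this list, with almost nothing from H3F3A, went from 1286 to 1098. On these sums the 70 replication-dependent genes made up 5.99% of both groups together in H2087 and 50.1% in H596.

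Genes that act on histone genes and their mRNA gave a mixed picture. Of 22 listed, all averaging an FPKM of 1 or more, 4 were higher in H596 by at least 2-fold and 1 was lower, where 18.2% and 14.2% of all genes were. The median difference of the list was 0.36, and the calls describe single genes. Cyclins E1 and E2, which with CDK2 act on NPAT, were higher, CCNE1 with 1.65 and 6.48 and CCNE2 with 4.85 and 21.4, while CDK2 itself stood at 31.0 and 19.1. ZNF473, a zinc finger protein of the histone 3' end complex, had 1.90 and 4.91, and CTIF, a translation factor that acts with the cap-binding complex, 1.40 and 4.06. CTIF and ZNF473 came below 2-fold after centring on the median of all genes, which left 2 genes higher. SLBP was the gene that was lower, with 37.5 in H2087 and 14.7 in H596. NPAT, at 7.05 and 8.38, differed by less than 2-fold.

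Of 22 S phase genes, 0 were higher by at least 2-fold, where 18.2% of all genes were. GINS4, of the replicative helicase, was lower (8.74 and 3.20), where 14.2% of all genes were. Under TMM scaling and after centring 3 were lower, CDC45, CDT1 and GINS4, and under TPM 2 were higher, PCNA and POLA1. The median difference was -0.14, or -0.26 under TMM scaling and 0.03 under TPM. PCNA, the sliding clamp of DNA polymerase, stood at 88.7 and 175, MCM2 at 73.5 and 87.1, and RRM2, of ribonucleotide reductase, at 66.6 and 55.6. Of 23 histone chaperone genes, ATRX (4.89 and 13.4) and DAXX (16.3 and 36.1), partners in H3.3 deposition, were higher by at least 2-fold and NAP1L1 (103 and 40.8) was lower. DAXX came below 2-fold after centring. The median of the chaperones was -0.17, and it was 0.00034 under TPM. The share of cells in S phase was not measured.

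**Figure D5:**
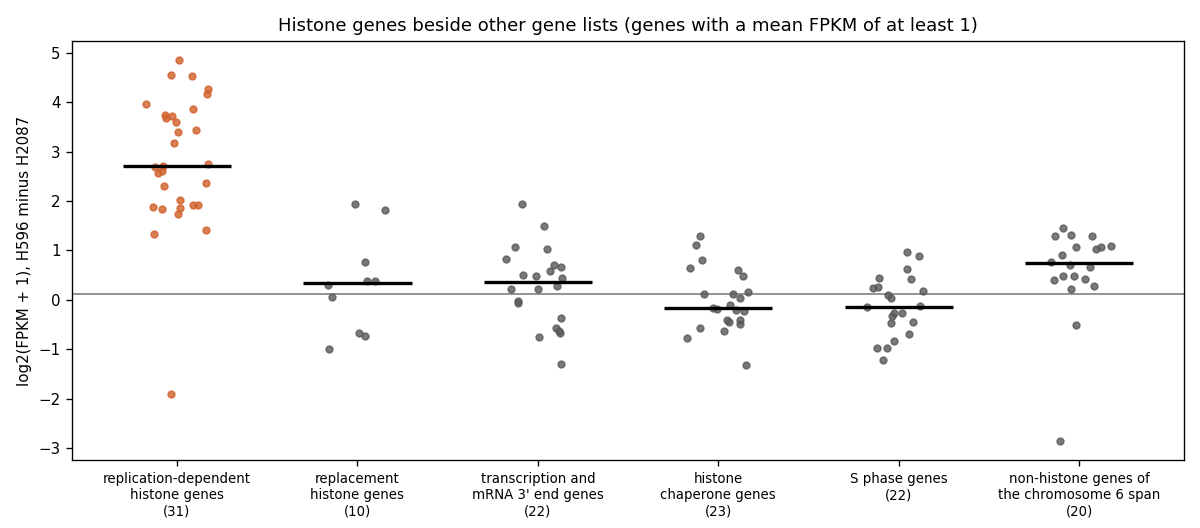
Difference of log2(FPKM + 1), H596 minus H2087, for the genes of 6 lists that average an FPKM of 1 or more, with 1 point per gene and a bar at each median. The grey line is the median of 13048 genes (0.12). The histone median is 2.71, over members that passed mostly through H596, and the other medians lie between -0.17 and 0.74.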

How the data were processed

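Per the labels and the study's methods, total RNA of untreated H2087 and H596 cells was made into stranded mRNA libraries (1 per cell line) and sequenced on an Illumina HiSeq4000. The submitters' processing notes name bcl2fastq 1.8.4, Trimmomatic, HISAT2 2.0.5, StringTie 1.3.3b and hg19. The authors deposited, for 27685 genes and 63714 transcripts, estimated counts and FPKM of each library, besides transcript positions. How the whole-number estimated counts were derived is not given in the sources used here. At few counts they part from FPKM, as for HIST1H2BN, whose ratio was 20.9 by count rate and 31.25 by FPKM. Ratios and intervals from few counts are therefore approximate. Per the file headers, positions and symbols (the other columns used) come from the deposited transcript table.

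Members were selected by symbol, and they and the gene lists were chosen with earlier results of these data known. All members may be named, and in full the 3 highest of each type, the 5 largest differences each way and those outside chromosome 6. Libraries were compared by log2(FPKM + 1) among 13048 genes that averaged an FPKM of 1 or more, called at 2-fold. This scale understates the change of low genes. Intervals are 95% (scipy 1.17.1) and cover counting error only. A library at 0 was given a limit of 3 counts. On simulated counts 190 of 200 genes changed 4-fold and 0 of 12110 unchanged genes were called. Whether these numbers hold with spread between replicates was not tested. Nor were they tested for members with few or no counts in H2087, where 35 of the 70 were at 0. Alternatives used TMM scaling of counts with no division by length (edgeR 4.0.16, R 4.3.3), TPM and centring. Others used a pseudocount of 0.1, other filters, transcript sums and other sets of genes. No fit or test between the lines was made.

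Stem-loops were read from the GRCh37 sequence and exons from GENCODE release 44 as lifted to that build. At the listed positions, 69 of 70 members had a reading frame of at least 300 bases and 65 overlapped a GENCODE histone gene. Promoters are from RefSeq. Protein sequences were not used here.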

Additional observations from a re-analysis of the deposited data

Results flagged for a closer look

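Both of the results here are levels of histone pseudogenes, which the comparisons leave out and which had more than 3 estimated counts in both libraries. HIST2H2BA (chr1:120906034-120914842, hg19) had 18 counts and an FPKM of 0.712 (95% Wilson interval 0.450 to 1.13) in H2087, and 166 counts and 5.66 (4.86 to 6.59) in H596. HIST2H2BC (chr1:149821759-149822340) had 101 counts and 3.61 (2.97 to 4.38) in H2087, and 562 counts and 17.0 (15.7 to 18.5) in H596. Both were higher in H596, by ratios of FPKM of 7.96 and 4.72. The third pseudogene, HIST1H2APS1, was at 0 in both libraries.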

How the results depend on the processing

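No paired analysis was possible because H2087 and H596 had a single library each, so no replicate could be left out and no replicate error is known. The number of members higher in H596 by at least 2-fold, 30 of 31, was 27 of 31 under TMM scaling and 27 of 28 without the HIST2 genes of identical copies. It was 37 of 44 at a mean FPKM of at least 0.1 and 37 of 70 with no filter. The number stayed at 30 of 31 under the other alternatives except 1, and 1 member was lower in all of these. The exception was a mean FPKM of at least 10, where 11 of the 11 members left were higher and 0 lower, because fewer members were tested. Of all 13048 genes, 2376 were higher by at least 2-fold in the main comparison. Under TMM scaling 2313 were, under TPM 3212 and after centring 2042. For the other alternatives the share of all genes was not counted. The median difference of 2.71 moved to 2.15 under TMM scaling, 3.59 under TPM, 2.59 after centring, 4.04 with a pseudocount of 0.1, 2.73 without the 6 HIST2 genes of identical copies, 1.16 with no filter, 1.98 at a mean FPKM of at least 0.1 and 3.86 at 10. The ratio of summed expression, 13.4, was 12.7 from counts scaled to the library total, 11.6 under TMM scaling, 15.2 under TPM, 14.1 without the identical copies and 17.4 over intronless transcripts alone. The share held by the 5 highest genes, 77.7% in H2087 and 69.8% in H596, was 81.2% and 75.5% from scaled counts or under TMM scaling, 80.5% and 69.3% summed over all places, 84.1% and 74.1% without the identical copies, and 74.9% over intronless transcripts in H2087. TMM scaling was applied to counts that were not divided by transcript length, and TPM also changed the scale of the values. With the pseudocount kept at 1, their shifts therefore mix library scaling with a change of scale. The causes of the shifts were not tested further. No member past 2-fold changed direction under TMM scaling, TPM, centring, the lower pseudocount or transcript sums, and 3 came below 2-fold under TMM scaling. The median over all genes was 0.12, and it was 0.0058 under TMM scaling and 0.30 under TPM.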
